A study of Mus musculus with 30 samples.

Results

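The RNAs of PPAR and RXR nuclear receptors and of their coactivators were examined in mouse sperm after tesaglitazar, an agonist of PPARα and PPARγ. Members were taken by name: the PPAR genes Ppara, Ppard and Pparg, the RXR genes Rxra, Rxrb and Rxrg, and the coactivator genes Ppargc1a, Ppargc1b, Ncoa1 and Med1. Of these 10 genes, 6 were found among the 15472 mRNAs and lincRNAs that the 2 sperm tables hold together. Ppard, Rxra, Rxrb, Ppargc1b, Ncoa1 and Med1 were in the 24 h table, and 2 of them, Rxra and Ncoa1, were also in the 46 days table. RNA levels of Ppara and Pparg, which encode the receptors that tesaglitazar activates, and of Rxrg and Ppargc1a were not analysed here.

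Adult C57Bl/6J males, aged 3 months, received tesaglitazar intraperitoneally at 10 μg/kg in DMSO and saline (TESA) or the DMSO and saline vehicle alone (CTRL), 2 times per week for 4 weeks. Sperm was let out of the cauda epididymis into medium and treated with a buffer that lyses somatic cells, either 24 h or 46 days after the last injection. At 24 h polyadenylated RNA was sequenced in 4 TESA and 4 CTRL libraries, and at 46 days total RNA depleted of rRNA was sequenced in 7 TESA and 7 CTRL libraries. The study's text counts its samples as animals, but the labels do not say which libraries come from separate animals, so the p-values are read here as measuring the spread between libraries, which may be technical.

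PPARs are nuclear receptors for fatty acids and their derivatives. Each pairs with an RXR, and the pair sits on DNA at direct repeats of a short core sequence, where a bound ligand exchanges corepressors for coactivators that modify histones and contact the Mediator complex. The receptors are best known for control of fatty acid use in liver, of adipocyte differentiation and of lipid storage, and RXRs are known to be needed for normal spermatogenesis in the testis.

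Library totals ran from 15337517 to 27709918 counts at 24 h and from 4538101 to 13513801 at 46 days, and levels are given as CPM, counts per 1000000 counts, scaled by TMM, the edgeR correction for RNA composition. The TMM factors ran from 0.771 to 1.57 at 24 h and from 0.0980 to 8.15 at 46 days. At 46 days, 369 of the 2262 tested genes had more than 20 counts in TESA replicate 2 and 1101 in TESA replicate 12, against 2259 in CTRL replicate 14. Transcript lengths were not used here, so no order of molecule numbers is given for the members, and a gene named as the highest or leading one of a list is so by its CPM alone, which also depends on length. The study's text counts fewer TESA libraries at 46 days than the labels do and does not name one left out, so every labelled library was used. The time points differ in library type as well as in time, so these cannot be told apart.

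The sperm label was read against marker genes at 24 h. All 10 of 10 listed markers of sperm and late spermatids were present, with Odf1, an outer dense fibre gene of the sperm tail, the highest by CPM. Their summed level was 8704, 4701, 9625 and 6022 CPM in TESA replicates 1, 3, 5 and 7, and 7667, 3100, 8138 and 10680 CPM in CTRL replicates 2, 4, 6 and 8. RNA of other cell types was also measured. The epididymal markers, 3 of 8 in the table and led by Crisp1, a secreted protein of the epididymal epithelium, summed to 725, 560, 338 and 656 CPM in TESA and 383, 505, 916 and 1857 CPM in CTRL. Leukocyte markers, 8 of 9 in the table and led by Cd74, the invariant chain of MHC class II, summed to 184, 171, 125 and 168 CPM in TESA and 256, 164, 119 and 147 CPM in CTRL. In both lists the groups overlapped, and Adgre1, a macrophage marker, was at 0 in some libraries.

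Blood markers, 4 of 5 in the table and led by the globin gene Hba-a2, summed to 88.8, 133, 64.7 and 147 CPM in TESA and 75.7, 53.5, 153 and 270 CPM in CTRL. Adipocyte markers, 2 of 6 in the table and led by Adig, summed to 43.8, 21.9, 63.3 and 52.6 CPM in TESA and 42.9, 30.1, 42.8 and 35.4 CPM in CTRL, while the defining adipocyte genes Adipoq, Plin1, Cidec and Lep were not analysed here. These groups overlapped too. Of the endothelial markers 1 of 4 was in the table, Pecam1, at 0 to 3.01 CPM, and of the spermatocyte markers 1 of 6, Piwil1, at 1.78 to 4.60 CPM. Among the genes measured at 46 days all 10 sperm markers were present, led by the protamine gene Prm2, with summed levels of 559 ± 137 CPM in TESA and 576 ± 145 CPM in CTRL (SD, n = 7 each), and no gene of the other 7 marker lists was analysed there.

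The first question was whether sperm of the treated males held more or less of these receptor and coactivator RNAs 24 h after the last injection. Of the 6 members, 5 were abundant enough to test (more than 20 counts in 4 or more libraries), and the quasi-likelihood test of edgeR called 0 of them at an adjusted p of 0.05, against 0% of the 13033 genes tested. At an unadjusted p under 0.05 the same test gave 0 of 5 members, against 2.4% (313) of all genes. Over all genes 0 also passed with the exact test of edgeR, with DESeq2 and with limma voom, where 306, 418 and 919 had an unadjusted p under 0.05. The log2 fold change was above 0 for 4 of the 5 members (Ppard, Rxra, Rxrb, Med1), against 49.1% of all genes, and below 0 for 1 (Ncoa1), against 50.9%, and for Med1 the direction turned with limma voom. The median was 0.22 for these 5 and -0.0086 for all genes. Groups did not overlap for 1 member, Rxra, with TESA higher, against 3.05% of all genes, 1.38% with TESA higher and 1.67% with TESA lower. In such bulk RNA, fewer cells of a type and less RNA per cell cannot be told apart.

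Ppard encodes PPARδ, the widely expressed receptor of the family. It was at 11.5, 13.1, 7.74 and 12.9 CPM in TESA replicates 1, 3, 5 and 7, and at 7.94, 10.6, 7.86 and 8.16 CPM in CTRL replicates 2, 4, 6 and 8. Of the TESA libraries 3 lay above every CTRL library while replicate 5 lay below all of them, so the groups overlapped, and CTRL replicate 4 stood apart from the other CTRL libraries. The means were 11.3 ± 2.49 CPM in TESA and 8.64 ± 1.31 CPM in CTRL (SD, n = 4 each), a 1.31-fold ratio. The log2 fold change was 0.39 (standard error 0.28, 95% interval -0.23 to 1.01) with adjusted p = 1.00 in the edgeR quasi-likelihood test, so the difference did not pass the test.

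Rxra encodes RXRα, the partner that PPARs pair with in most tissues. It was at 16.6, 16.6, 28.2 and 17.7 CPM in TESA, and at 15.1, 14.6, 14.3 and 15.1 CPM in CTRL, in the same order of replicates. Every TESA library lay above every CTRL library on this scale, 3 of them by little, with TESA replicate 5 far above the rest and the CTRL libraries close together. The means were 19.8 ± 5.63 CPM in TESA and 14.8 ± 0.419 CPM in CTRL (SD, n = 4 each), a 1.34-fold ratio. The log2 fold change was 0.42 (standard error 0.24, 95% interval -0.12 to 0.96) with adjusted p = 1.00 (edgeR), and it was 0.22 without TESA replicate 5. With library totals in place of TMM, levels were 13.6, 15.7, 30.4 and 27.9 CPM in TESA and 11.7, 11.7, 15.2 and 17.3 CPM in CTRL, and the groups overlapped.

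The summed smooth muscle markers and the summed adipocyte markers were highest in TESA replicate 5 as well. With library totals the adipocyte sum was highest in TESA replicate 7, at 82.7 CPM against 68.4 CPM in TESA replicate 5. The adipocyte sum is mainly the level of 1 gene, with a mean of 39.9 CPM for Adig against 1.67 CPM for Fabp4. For Adig the log2 fold change was 0.27, and 0.071 without TESA replicate 5. Fabp4, the other adipocyte marker measured, had its highest level, 4.51 CPM, in a CTRL library and a log2 fold change of 0.02. All 5 of 5 smooth muscle markers were in the table, with Tagln, an actin-binding protein of the contractile cell, the highest by CPM and Myh11, the smooth muscle myosin, at 0 in some libraries. Their summed level was 27.6, 32.3, 77.3 and 26.8 CPM in TESA and 11.9, 32.5, 22.3 and 35.6 CPM in CTRL. The groups overlapped, and TESA replicate 5 alone lay above all CTRL libraries. Their log2 fold changes were above 0 for 5 of 5, with a median of 0.77. This median was 0.08 without TESA replicate 5 and 0.18 with limma voom. The part of the smooth muscle or adipocyte markers in the Rxra values was not tested. In the other lists, log2 fold changes were above 0 for 0 of 4 blood, 1 of 8 leukocyte, 1 of 3 epididymal and 3 of 10 sperm markers. They were above 0 for 2 of 2 adipocyte markers and for Piwil1 and Pecam1.

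Rxrb encodes RXRβ, the RXR that is known for its place in Sertoli cells of the testis. It was at 7.40, 8.91, 13.4 and 14.9 CPM in TESA, and at 8.77, 9.30, 10.2 and 9.88 CPM in CTRL. TESA replicates 5 and 7 lay above all CTRL libraries and TESA replicate 1 below them, so that the TESA libraries spread to both sides of a narrow CTRL group. With means of 11.1 ± 3.56 CPM and 9.55 ± 0.644 CPM (SD, n = 4 each), the log2 fold change was 0.22. Its standard error was 0.29 and its 95% interval -0.43 to 0.88, with adjusted p = 1.00 in the edgeR test.

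**Figure D1:**
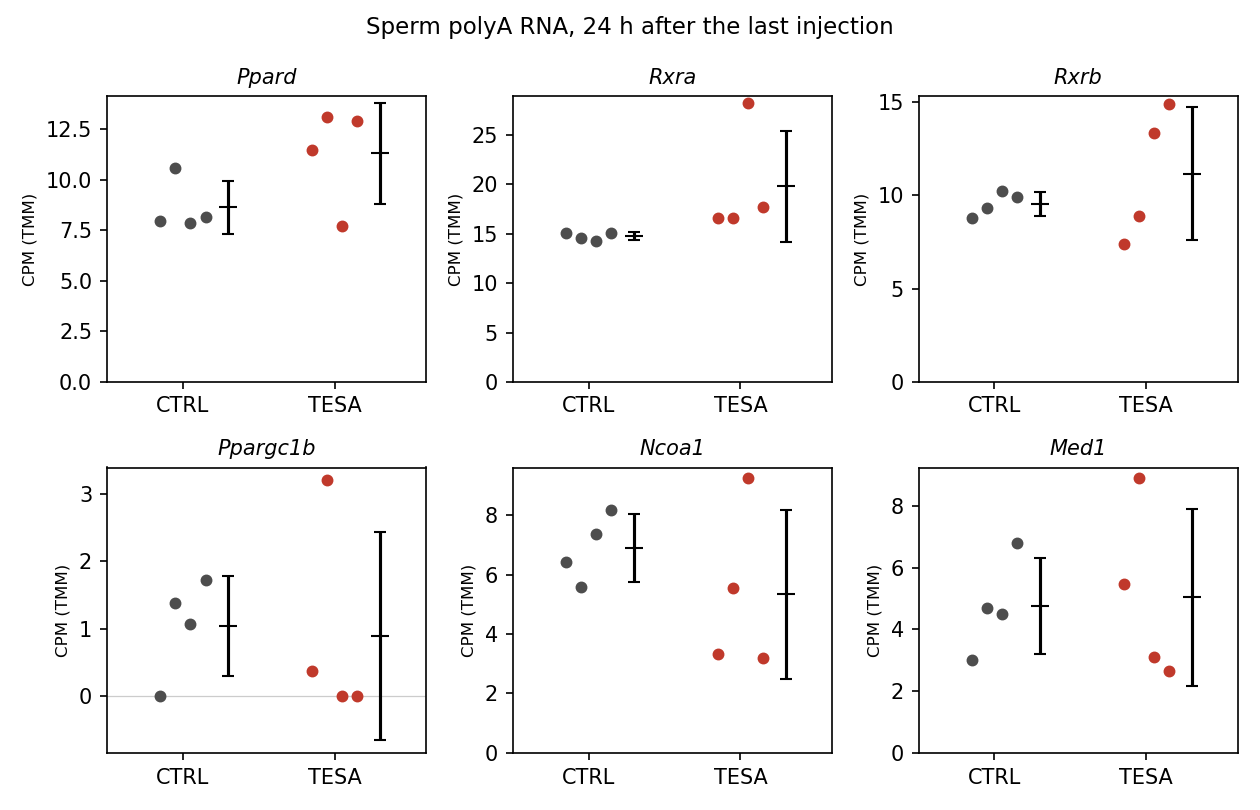
Level of each of the 6 members at 24 h in CPM scaled by TMM, 1 point per library, with the mean and SD of the 4 TESA and 4 CTRL libraries. The TESA and CTRL points overlap for every gene but Rxra, where TESA replicate 5 is at 28.2 CPM and the CTRL libraries are at 14.3 to 15.1 CPM.

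Ncoa1 encodes SRC-1, a coactivator that binds liganded receptors and recruits histone acetyltransferases. It was at 3.33, 5.54, 9.27 and 3.19 CPM in TESA, and at 6.43, 5.58, 7.37 and 8.19 CPM in CTRL. TESA replicates 1 and 7 lay well below all CTRL libraries, replicate 3 just below them, and replicate 5 above them. The means were 5.33 ± 2.83 CPM in TESA and 6.89 ± 1.13 CPM in CTRL (SD, n = 4 each). The edgeR fit gave a ratio of 0.772. The log2 fold change was -0.37 (standard error 0.41, 95% interval -1.30 to 0.55) with adjusted p = 1.00 in the edgeR test. It was -0.76 without TESA replicate 5, and limma voom gave -0.83, with p under 0.05 before adjustment. Over all genes that tool also gave more such p-values than the quasi-likelihood test, as counted above.

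Med1 encodes the Mediator subunit through which nuclear receptors contact the transcription machinery. Its level was 5.49, 8.91, 3.10 and 2.64 CPM in TESA, and 3.01, 4.69, 4.51 and 6.80 CPM in CTRL. High and low libraries occurred in both groups, which overlapped over most of their range. The means were 5.04 ± 2.87 CPM and 4.75 ± 1.56 CPM (SD, n = 4 each) and the log2 fold change was 0.079 (95% interval -0.996 to 1.15), with adjusted p = 1.00 in the edgeR test. This value had no settled direction: limma voom gave -0.44.

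Ppargc1b encodes PGC-1β, a coactivator of oxidative metabolism. It had 6.36, 74, 0 and 0 estimated counts in TESA and 0, 17, 22 and 52 in CTRL, or 0.370, 3.20, 0 and 0 CPM against 0, 1.37, 1.07 and 1.72 CPM. The gene was thus near the detection limit, with 0 counts in 3 libraries and the highest level in TESA replicate 3, which stood apart from the other TESA libraries. With more than 20 counts in 3 libraries it was not tested. A count of 0, taken as up to 3 counts, allows up to 0.0688 CPM in TESA replicate 7, 0.148 CPM in TESA replicate 5 and 0.251 CPM in CTRL replicate 2, for counting error alone.

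The genes that vary most like Rxra and Ncoa1 across the 8 libraries were sought among 8668 protein-coding genes, by the smallest root mean square difference of log2 CPM centred on each gene's mean. Closest to Rxra were Eif3b, a translation initiation factor subunit, at 0.106, the kinase gene Map2k2 at 0.112 and the RNA-binding protein gene Rbms2 at 0.129, against a median of 0.597 over the genes compared. All of them had their highest level in TESA replicate 5, Eif3b with 130.5 CPM against 63.5 CPM in its lowest library, CTRL replicate 4. Closest to Ncoa1 were the ubiquitin ligase gene Rnf146 at 0.231, Tcte1, a gene of the sperm flagellum, at 0.231 and the small GTPase gene Rab31 at 0.270, against a median of 0.739. Rnf146 was likewise highest in TESA replicate 5, with 7.84 CPM, while Tcte1 was highest in CTRL replicate 8, with 7.79 CPM, and Rab31 in CTRL replicate 2, with 5.43 CPM.

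The listed target genes of PPAR and RXR, most of them enzymes and carriers of fatty acid metabolism, were then read at 24 h. Of the 48 listed, 31 were in the table and 29 were tested, and 0 passed an adjusted p of 0.05. With p under 0.05 before adjustment, 1 was higher in TESA (0.982% of all genes) and 0 were lower (1.42% of all genes), and 18 of 29 log2 fold changes were above 0, with a median of 0.03. The gene with the smallest p was Mgll, the lipase that splits monoacylglycerols, with 193 ± 52.3 CPM in TESA and 122 ± 16.0 CPM in CTRL (SD, n = 4 each). Its log2 fold change was 0.66 (standard error 0.25) with adjusted p = 1.00 in edgeR, and without TESA replicate 3 or 7 or CTRL replicate 2 or 8 its p before adjustment was above 0.05. Its groups did not overlap (1.38% of all genes with TESA higher). The margin was bare, with 139.76 CPM in the lowest TESA library and 139.75 CPM in the highest CTRL library. Acsl1, which activates long-chain fatty acids and was the target with the highest CPM, had a mean of 606 CPM and a log2 fold change of 0.02.

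Coactivators other than the members were tested for 22 of 24 genes, with 10 log2 fold changes above 0 and a median of -0.07. With p under 0.05 before adjustment, 0 were higher (0.982% of all genes) and 1 was lower (1.42%), Prmt1, an arginine methyltransferase, at 2.41 ± 1.66 CPM in TESA and 5.93 ± 1.69 CPM in CTRL (SD, n = 4 each). Its log2 fold change was -1.29 (standard error 0.57, adjusted p = 1.00 in edgeR), and its groups overlapped. Before adjustment its p was above 0.05 without TESA replicate 1, 3 or 5, without CTRL replicate 4, 6 or 8, and with library totals (-0.96). The highest of them by CPM, Smarcd3, a subunit of the SWI/SNF remodelling complex, had a log2 fold change of 0.29. Of the 32 other Mediator subunits 28 were tested, 15 with a log2 fold change above 0 and a median of 0.04. Among these Med25 alone had p under 0.05 (0.982% of all genes with TESA higher), with 20.4 ± 2.88 CPM in TESA and 14.3 ± 1.99 CPM in CTRL (SD, n = 4 each), and groups that did not overlap (1.38% of all genes in this direction). It had a log2 fold change of 0.51 (its standard error 0.22) and adjusted p = 1.00 in edgeR. Its p before adjustment was above 0.05 without TESA replicate 1, 5 or 7, without CTRL replicate 2, 6 or 8, with library totals and with the exact test of edgeR. Med12, the subunit with the highest CPM and part of the kinase module, had a log2 fold change of -0.41.

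Corepressors, which silence receptors without ligand, had a median log2 fold change of -0.27, with 7 of 9 tested genes below 0 and 0 at p under 0.05. Sin3b, a scaffold of histone deacetylase complexes with the smallest p among them, had a log2 fold change of 0.31. Leaving out 1 library moved the list's median between -0.35 and 0.03. Of the 13 other receptors that pair with RXR, 6 were tested, 3 on each side of 0, with a median of -0.03. Thra, a thyroid hormone receptor, had the smallest p there (log2 fold change 0.57), and the orphan receptor gene Nr4a1 the highest level (log2 fold change -0.09).

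Transcription factors that PGC-1 coactivators bind were tested for 13 of 16 genes and had a median of 0.18, with 7 above 0. Gabpb2, a subunit of the GABP factor that acts on mitochondrial genes, had the smallest p, with 3.86 ± 2.70 CPM in TESA and 10.8 ± 3.72 CPM in CTRL (SD, n = 4 each). All 4 TESA libraries lay below all CTRL libraries (1.67% of all genes), the lowest of them at 0 CPM, and the log2 fold change was -1.48 (standard error 0.94, adjusted p = 1.00 in edgeR). In the same list 1 gene did not overlap in the other direction (1.38% of all genes): Foxo1, an insulin-regulated factor named after its values were seen, at 3.79 ± 0.435 CPM in TESA and 2.71 ± 0.0970 CPM in CTRL (SD, n = 4 each). The highest by CPM, Mef2a, had a log2 fold change of 0.25. Of 13 proteins that carry lipid ligands, 6 were tested, 4 above 0, with a median of 0.05. The testis gene Fabp9 had the highest CPM (log2 fold change -0.10) and Fabp12 had the smallest p (log2 fold change -1.96, standard error 1.38). Fabp12 was near the detection limit, with means of 0.529 CPM in TESA and 2.13 CPM in CTRL and its lowest TESA library at 0. The 8 receptor chaperones were all tested, 5 above 0, with a median of 0.14. Among them the heat shock protein gene Hsp90ab1 had the highest CPM (log2 fold change 0.14) and the cochaperone gene Fkbp4 had the smallest p (log2 fold change 0.35). No gene of these 5 lists had p under 0.05 before adjustment with all libraries in the quasi-likelihood test. Without TESA replicate 5 Gabpb2 did, with a log2 fold change of -1.06, and limma voom gave 1 such gene each among the receptors that pair with RXR, the factors bound by PGC-1 coactivators and the chaperones. Over all genes 249 had such a p without TESA replicate 5, and limma voom gave more than the quasi-likelihood test, as counted above.

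The list medians at 24 h moved with single libraries. With 1 library left out at a time the median ran from -0.05 to 0.19 for the target genes, from -0.24 to 0.20 for the other coactivators, from -0.056 to 0.070 for the Mediator subunits and from -0.03 to 0.15 for the receptors that pair with RXR. It ran from -0.0080 to 0.31 for the factors bound by PGC-1 coactivators and from -0.10 to 0.26 for the carriers of lipid ligands, so none of these 6 lists kept its sign, while the chaperones ran from 0.10 to 0.17. With library totals, where the median of all genes was 0.21, the median was 0.19 for the other coactivators and 0.27 for the receptors that pair with RXR, above 0 in place of below it.

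The second question was whether such RNAs differed 46 days after the last injection. Rxra and Ncoa1 were tested, and the edgeR quasi-likelihood test called 0 of 2 at an adjusted p of 0.05, against 0% of 2262 genes. At p under 0.05 before adjustment there were 0 of 2, against 5.75% (130) of all genes, a count that was 70 without TESA replicate 12 and 37 with library totals. Over all genes the exact test of edgeR called 12 (148 before adjustment), and DESeq2 and limma voom called 0 each (103 and 134). Both members had a log2 fold change above 0 (55.4% of all genes) and 0 of 2 one below 0 (44.6%), with a median of 0.49 against 0.030 for all genes. With library totals both were below 0, as was the median of all genes, which moved to -1.03; relative to that median they were at 0.26 (Rxra) and 0.0037 (Ncoa1) on the log2 scale. Groups overlapped for both members, with 0.0442% of all genes not overlapping.

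In the 7 TESA libraries Rxra had a lowest level of 0, a median of 2.23 and a highest of 11.9 CPM, and in the 7 CTRL libraries 0, 2.62 and 2.94 CPM. The CTRL range lay within the TESA range, the TESA median was below the CTRL median, and the highest TESA value, in replicate 12, stood apart from the other 6. That value came from 29.7 estimated counts in a library with a TMM factor of 0.316, and the count of 0 in TESA replicate 2 allows up to 3.50 CPM, above the medians of both groups. The means were 3.46 ± 3.87 CPM in TESA and 1.88 ± 1.15 CPM in CTRL (SD, n = 7 each). The log2 fold change was 0.83 (standard error 0.60, 95% interval -0.44 to 2.09) with adjusted p = 0.999 in edgeR. Without TESA replicate 12 it was 0.25, and with library totals -0.76. With library totals the Rxra level was 3.75 CPM in TESA replicate 12. It was highest in TESA replicate 11 (14.4 CPM) and, among CTRL libraries, in replicate 14 (22.5 CPM).

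Ncoa1 had a lowest level of 0, a median of 2.12 and a highest of 3.71 CPM in TESA, and 0.395, 1.97 and 3.12 CPM in CTRL. The groups lay over each other, and TESA replicate 12, highest for Rxra, was the TESA library at 0, where up to 1.19 CPM is allowed. The means were 2.04 ± 1.25 CPM and 1.97 ± 0.869 CPM (SD, n = 7 each) and the log2 fold change was 0.15 (standard error 0.42, 95% interval -0.75 to 1.05), with adjusted p = 0.999 in edgeR. This direction turned with library totals (-1.02), and leaving out 1 library at a time gave -0.05 to 0.30.

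**Figure D2:**
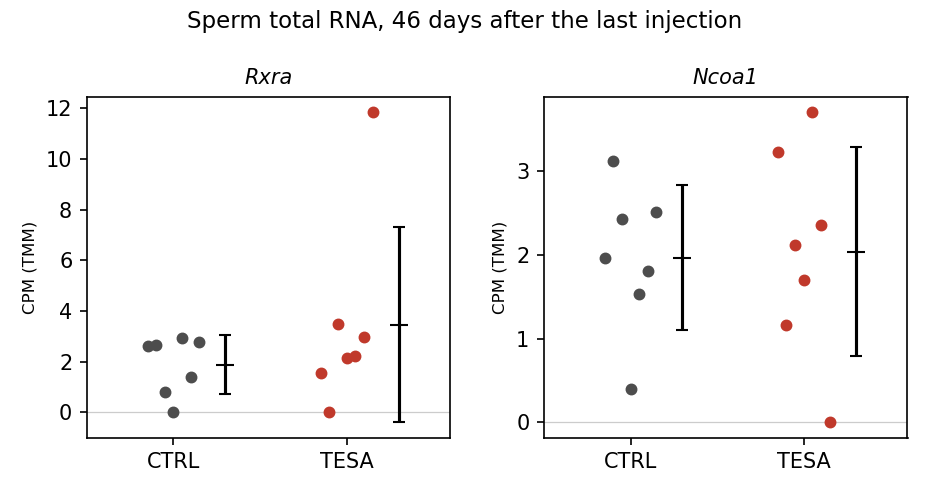
Levels of Rxra and Ncoa1 at 46 days in CPM scaled by TMM, 1 point per library, with the mean and SD of the 7 TESA and 7 CTRL libraries. The TESA and CTRL points overlap for both genes, and TESA replicate 12 is at 11.9 CPM for Rxra and at 0 for Ncoa1.

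Of the 48 target genes 5 were in the 46 days table and 4 were tested, all 4 with a log2 fold change above 0 and a median of 0.57, which was 0.05 without TESA replicate 12, 0.04 with limma voom and -0.77 with library totals, where the median of all genes was -1.03. With p under 0.05 before adjustment 1 was higher (4.95% of all genes) and 0 were lower (0.796%). It was Abca1, the cholesterol exporter that liver X receptors and RXR control, with 15.7 ± 31.3 CPM in TESA and 1.98 ± 0.504 CPM in CTRL (SD, n = 7 each). The highest library, TESA replicate 12, had 86.6 CPM and the next 6.02 CPM. Its log2 fold change was 2.92 (standard error 0.81), with adjusted p = 0.512 in the quasi-likelihood test of edgeR, while its exact test gave 2.97, past the adjusted threshold. With library totals it was 0.69, with p above 0.05 before adjustment. Without TESA replicate 12 the log2 fold change was 0.87, still with p under 0.05 before adjustment, and the medians with all libraries were 4.16 CPM in TESA and 1.87 CPM in CTRL. Acsl1 was the target with the highest CPM, a mean of 121 CPM and a log2 fold change of 0.42.

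By CPM scaled by TMM, TESA replicate 12 was also the highest TESA library for other listed genes. Its summed sperm markers were at 354.5 CPM, the lowest of the TESA libraries, which ran from 474 to 739 CPM otherwise, while CTRL replicate 13 was lower, at 307 CPM; the part of this in the values of that library was not tested. Of 7 tested coactivators, 5 were above 0, with a median of 0.07, and 1 had p under 0.05 and was higher in TESA (4.95% of all genes), the histone methyltransferase gene Kmt2d, at 8.52 ± 9.42 CPM in TESA and 3.29 ± 1.11 CPM in CTRL (SD, n = 7 each). Its log2 fold change was 1.36 (standard error 0.47, adjusted p = 0.690 in edgeR), with 29.2 CPM in TESA replicate 12. Without that library it was 0.67, still with p under 0.05 before adjustment, which was above 0.05 with library totals (0.061) and with libraries 1 to 10 alone (0.50). Ep300, a histone acetyltransferase and the coactivator with the highest CPM, had a log2 fold change of 0.02. Of 7 Mediator subunits, 4 were above 0, with a median of 0.08 and 0 at p under 0.05. Med13 had 20.2 CPM in TESA replicate 12 and a log2 fold change of 1.06 (edgeR, adjusted p = 0.962), which was -0.09 without it, and Med12, the highest by CPM, had -0.04.

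Of the chaperones 2 were tested, with a median of 1.42, and 1 had p under 0.05 and was higher in TESA (4.95% of all genes). This was Hsp90ab1, with 12.7 ± 27.0 CPM in TESA and 3.18 ± 1.36 CPM in CTRL (SD, n = 7 each), a log2 fold change of 1.99 (edgeR, standard error 0.86, adjusted p = 0.763) and 73.9 CPM in TESA replicate 12. Without that library its log2 fold change was -0.15. The single other receptor tested that pairs with RXR, the retinoic acid receptor gene Rara, had a log2 fold change of 0.15, a sign that turned with library totals, to -1.16. No factor bound by PGC-1 coactivators and no carrier of lipid ligands was in the 46 days table. The medians of the coactivators and of the Mediator subunits at 46 days ran from -0.0082 to 0.19 and from -0.023 to 0.12 with 1 library left out at a time, and were -0.94 each with library totals.

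Whether the TESA against CTRL difference itself differed between time points was tested in 1 edgeR model over all 22 libraries. Of 2141 genes, 0 passed an adjusted p of 0.05 (0% of genes, members included) and 106 (4.95%) had p under 0.05 before adjustment, with 2 called without TESA replicate 1 and 4 without TESA replicate 3 of the 24 h libraries; no other tool was run for it. For Rxra the 46 days fold change minus the 24 h one was 0.18 on the log2 scale (standard error 0.79, 95% interval -1.44 to 1.81, adjusted p = 0.998). It turned to -0.33 without TESA replicate 12 of the 46 days libraries, to -0.02 without CTRL replicate 9 and to -1.37 with library totals. For Ncoa1 the difference was 0.35 (standard error 0.69, 95% interval -1.08 to 1.78, adjusted p = 0.998), and -0.76 with library totals. Library totals moved the median of all genes to 0.21 at 24 h and -1.03 at 46 days, so both turned values include a shift of all genes. Relative to those medians Rxra was at 0.44 at 24 h and 0.26 at 46 days, and Ncoa1 at -0.43 and 0.0037. Both intervals include 0 and reach beyond 1 on either side, so they show neither a difference between the time points nor its absence. This model scaled and fitted all libraries together, so its values are not the differences of the separate fits. Those gave 0.83 at 46 days and 0.42 at 24 h for Rxra, and 0.15 and -0.37 for Ncoa1. The median of all genes in this model was also above 0. It was 0.16 without TESA replicate 5 of 24 h, and 0.17 and 0.11 without TESA replicates 5 and 12 of 46 days.

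**Figure D3:**
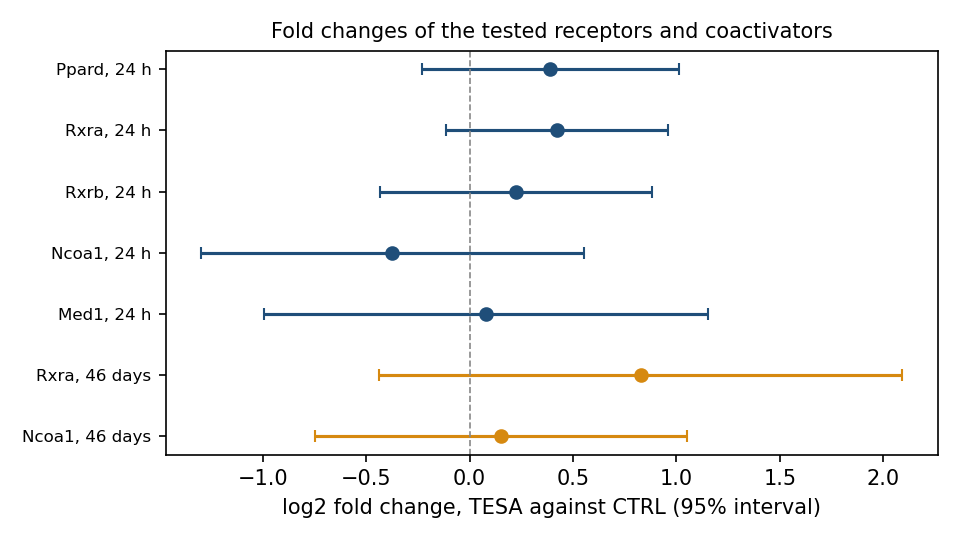
Log2 fold change of TESA against CTRL for each tested member at 24 h and 46 days, with its 95% interval from the edgeR quasi-likelihood fit. Every interval includes 0, and the widest is that of Rxra at 46 days, -0.44 to 2.09.

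Promoter sequence was read for the members with an entry in the RefSeq table for GRCm38.p6, which holds windows of 300 bases around gene starts, 14 of them for 9 members. The core sequence of PPAR and RXR was searched on both strands as AGGTCA and GGGTCA, and the PPAR and RXR element as the direct repeat AGGTCANAGGTCA, which overlaps the first core sequence. The first of these was in 4 of the 14 windows and in 16.3% of all 32817 windows, the second was in 3 and in 13.7%, and the direct repeat was in 0 and in 0.0396%. Windows with a core sequence belonged to Pparg, Rxra and Rxrg. Both windows of Rxra, which lie inside the annotated span of the gene, are shown, since 1 of them holds core sequences and the other does not, with that of Ncoa1, the other member measured at both time points. In GRCm38.p6 Rxra spans chr2:27676445-27763319 on the plus strand and Ncoa1 chr12:4247362-4477206 on the minus strand. The first Rxra window, chr2:27676951-27677250 on the plus strand, has a GC content of 83.0% with 55 CpG, against medians of 52.7% and 7 over all windows. The second, chr2:27709042-27709341 on the plus strand, has a GC content of 54.3% with 1 CpG and holds the first core sequence 2 times and the second 1 time. The Ncoa1 window, chr12:4477133-4477432 on the minus strand, has a GC content of 84.7% with 49 CpG. Sequences run 5′ to 3′ on the strand of the gene, and capitals mark core sequences on either strand. A match describes letters only, and binding was not measured.
Rxra window 1: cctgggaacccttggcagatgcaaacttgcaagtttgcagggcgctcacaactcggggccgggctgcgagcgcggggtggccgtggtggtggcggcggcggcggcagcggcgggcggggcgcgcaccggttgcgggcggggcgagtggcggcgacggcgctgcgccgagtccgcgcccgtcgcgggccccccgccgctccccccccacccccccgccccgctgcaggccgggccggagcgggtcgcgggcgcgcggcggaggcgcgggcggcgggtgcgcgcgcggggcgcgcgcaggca
Rxra window 2: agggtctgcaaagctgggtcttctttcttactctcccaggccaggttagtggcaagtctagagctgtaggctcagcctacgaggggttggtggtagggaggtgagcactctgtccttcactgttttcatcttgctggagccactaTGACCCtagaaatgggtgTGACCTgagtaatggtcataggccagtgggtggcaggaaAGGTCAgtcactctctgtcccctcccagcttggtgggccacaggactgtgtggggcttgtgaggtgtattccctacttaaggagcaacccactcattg
Ncoa1 window 1: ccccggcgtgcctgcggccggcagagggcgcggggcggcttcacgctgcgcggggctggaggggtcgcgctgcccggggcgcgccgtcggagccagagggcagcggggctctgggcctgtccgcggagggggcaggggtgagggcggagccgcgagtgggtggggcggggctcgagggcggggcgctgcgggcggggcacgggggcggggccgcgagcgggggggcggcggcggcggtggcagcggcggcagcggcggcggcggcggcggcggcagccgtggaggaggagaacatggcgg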

How the data were processed

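Polyadenylated RNA (24 h) and total RNA depleted of rRNA (46 days) of mouse sperm were measured in 22 libraries. The authors trimmed the reads (Trim Galore 1.16) and quantified them with Salmon 0.11.2 on GRCm38, per the labels and the study's methods, and the deposited values are expected counts, the estimated counts per gene or repeat family, not normalized. The serum table of small RNA was not used here. The tables list the more abundant features, and the rule behind this is not given in the sources used here.

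Groups came from the labels. The features given as mRNAs and lincRNAs, or as genes, are those that remained after repeats, structural RNAs and other classes were set aside by name or RefSeq type. Of their names, 12172 of 15373 at 24 h and 1959 of 2458 at 46 days were found in RefSeq. Counts were rounded, scaled by TMM over all features, and genes above 20 counts in at least 4 (24 h) or 6 (46 days) libraries, which is 80% of the smaller group rounded up, were tested with the quasi-likelihood test (edgeR 4.0.16, R 4.3.3), two-sided, with Benjamini-Hochberg adjustment over mRNAs and lincRNAs and a threshold of 0.05. The time points were compared by the interaction term of a single edgeR model over 2141 genes. Totals per library ran from 15337517 to 27709918 counts at 24 h and from 4538101 to 13513801 at 46 days. A count of 0 was taken to allow 3 counts; these limits cover counting error only, since PCR copies are not independent molecules. No library was left out.

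Alternatives were DESeq2 1.42.0, its size factors, the edgeR exact test, library totals, TMM over tested genes, no count filter, limma 3.58.1 voom with quality weights, all features in one fit, each library left out, a term for libraries 11 to 14 or libraries 1 to 10 alone, and, chosen after seeing the data, 46 days without TESA replicates 2 and 12. The tests were tested on simulated data. The genes named are the members, the gene with the smallest p and the gene with the highest CPM of each list, and the 3 protein-coding genes with levels above 0 in all 8 libraries of 24 h most like Rxra and Ncoa1, the receptor or partner and the coactivator with the highest CPM. Foxo1 was named outside this rule, after its values were seen. A gene the rule names is not reported here. The members and lists were chosen with earlier results of these data known. Other software was pandas 2.3.3, matplotlib 3.10.9, Python 3.11.15 and the R package data.table (version 1.17.8). Sequences and gene positions are from RefSeq (GRCm38.p6).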

Additional observations from a re-analysis of the deposited data

Results flagged for a closer look

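Within each group, 78 values were examined for a library that stands apart from the others, by its gap to the nearest library over the range of the group, and 12 were found. Chance gives about 1 in 20 for independent values, but these include genes chosen for a small p and count Pecam1 2 times, so 12 is not set against that rate. At 24 h these were Rxra in TESA replicate 5 (28.2 CPM), Ppargc1b in TESA replicate 3 (3.20 CPM), Ppard in CTRL replicate 4 (10.6 CPM) and the cochaperone gene Fkbp4 in CTRL replicate 6 (105.9 CPM). Among cell type markers, the smooth muscle sum was highest in TESA replicate 5 (77.3 CPM), the library with the highest Rxra level. The endothelial sum was highest in CTRL replicate 2 (3.01 CPM), and it is the level of Pecam1 (3.01 CPM), the single endothelial marker in the table.

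At 46 days each of them was in TESA replicate 12: Rxra (11.9 CPM), Abca1 (86.6 CPM), Kmt2d (29.2 CPM), Med13 (20.2 CPM) and Hsp90ab1 (73.9 CPM). On the TMM scale, genes of different roles in receptor signalling thus had their highest TESA level in 1 library, which had a TMM factor of 0.316. With library totals Rxra was at 3.75 CPM in that library, against 14.4 CPM in TESA replicate 11. Without TESA replicate 12 the log2 fold changes of these genes were 0.25 for Rxra, 0.87 for Abca1, 0.67 for Kmt2d, -0.09 for Med13 and -0.15 for Hsp90ab1. The part of RNA composition in that library was not tested.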

How the results depend on the processing

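Log2 fold changes of members kept their direction and their side of the threshold in 77 of 80 values from alternatives at 24 h, 45 of 50 at 46 days and 44 of 48 for the difference between time points. The genes with the smallest p in each list, marker lists included, did so in 256 of 256 values at 24 h and 134 of 150 at 46 days. The threshold is that of adjusted p, which 0 genes passed at 24 h in any alternative, so the 24 h values compare direction alone. Before adjustment the p of Mgll, Prmt1 and Med25 was above 0.05 in some of them, as given above. For each exception below the cause was not tested. At 24 h, limma voom turned Med1 to -0.44. At 46 days, library totals turned Rxra to -0.76, Ncoa1 to -1.02, Med13 to -0.61, Rara to -1.16 and Hsp90ab1 to -0.082, and turned the difference between time points to -1.37 for Rxra and -0.76 for Ncoa1. They moved the median of all genes to 0.21 at 24 h and -1.03 at 46 days, so the values turned by library totals include a shift of all genes. Relative to these medians Rxra was at 0.44 at 24 h and 0.26 at 46 days, and Ncoa1 at -0.43 and 0.0037. Mean levels in CTRL moved to 14.0 CPM (Rxra, 24 h), 6.10 CPM (Rxra, 46 days) and 5.64 CPM (Ncoa1, 46 days) with library totals. At 46 days limma voom gave -0.043 for Rara and -0.023 for Hsp90ab1, libraries 1 to 10 alone gave -0.041 for Med13 and -0.42 for Hsp90ab1, and leaving out TESA replicates 2 and 12, chosen after seeing the data, gave -0.031 for Med13, -0.067 for Rara and -0.067 for Hsp90ab1. The exact test of edgeR called 12 genes at 46 days, among them Abca1 (2.97), where the quasi-likelihood test called 0.

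With 1 library left out at a time, log2 fold changes at 24 h ran from 0.31 to 0.55 for Ppard, 0.22 to 0.51 for Rxra, 0.056 to 0.39 for Rxrb, -0.76 to -0.18 for Ncoa1 and -0.35 to 0.30 for Med1. At 46 days they ran from 0.25 to 0.99 for Rxra, -0.048 to 0.30 for Ncoa1, 0.87 to 3.17 for Abca1, 0.67 to 1.52 for Kmt2d, -0.093 to 1.26 for Med13, -0.043 to 0.30 for Rara and -0.15 to 2.24 for Hsp90ab1. The difference between time points ran from -0.33 to 0.40 for Rxra and 0.13 to 0.77 for Ncoa1, with 0 to 4 genes called. In these fits 0 genes were called at 24 h and 46 days, as in the fits with all libraries. No paired analysis was possible because TESA and CTRL libraries share no replicate numbers within a time point. Levels per transcript length were not run. The genes named for the highest CPM of a list were not run under the alternatives unless they also had its smallest p. In TESA replicate 2 of 46 days, 369 of 2262 tested genes had more than 20 counts, which limits the precision of its values.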
